A study of Mus musculus with 9 samples.

Results

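The genes described here are 35 genes of the intestinal epithelium, chosen as the probe sets whose single gene symbol in the platform annotation belongs to a list of epithelial adhesion, keratin, enterocyte and secretory genes. They were 35 of the 18193 genes with a single-symbol probe set and held 65 of the 45101 probe sets on the array, with 17 of the genes represented by several. The question was which of them varied together between arrays and which stayed flat. The material was small intestinal mesenchyme of C57Bl/6J mouse embryos at E18.5, from which the epithelium had been separated with a cell recovery solution before culture on collagen for 48 h. It was treated for 24 h with Sonic hedgehog (Shh, 3 arrays), Indian hedgehog (Ihh, 3 arrays) or Vehicle (3 arrays). Each treatment had 6 wells, combined at random into 3 samples, and p-values therefore measure the spread between pools of wells rather than between embryos. No gene was altered in any group, and ligand dose is not given in the sources used here.

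The lining of the gut is a single layer of cells held together by E-cadherin, desmosomes and tight junctions and stiffened by keratin filaments, features that the mesenchyme beneath it largely lacks. Its absorptive enterocytes carry fatty acid binding proteins and make apolipoproteins, its goblet cells secrete mucin and trefoil peptides, and Cdx, Hnf4a and Gata factors set its identity. The epithelium makes Shh and Ihh, which the mesenchyme receives through Ptch1. In RNA from a whole sample, fewer cells of a type and less RNA per cell cannot be told apart. Where these transcripts came from in cultures freed of epithelium was not tested.

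The levels are RMA log2 values, which fall on a common distribution for all arrays, are compressed at the low end and cannot be compared between probe sets of different genes. Median levels of the arrays were 5.87 to 5.92 log2. Ptch1, the receptor gene that hedgehog signalling induces, was 1.48 ± 0.14 log2 (SE) higher with the ligands (limma adjusted p = 0.000622). As a measure of RNA integrity, the 3' minus 5' signal of the control transcripts was -0.19 to 0.03 log2 for Gapdh and 0.12 to 0.28 for actin, both highest on Vehicle 1. Defining genes of mesenchyme, Col3a1 at 13.14 to 13.43 and Acta2 at 13.07 to 13.53 log2, were present on every array. So were listed markers of immune cells (Lyz2 at 12.71 or more), enteric neurons and glia (Ednrb at 11.98 to 12.36) and endothelium (Esam at 9.69 to 10.10).

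Promoter windows from the RefSeq table of build GRCm38.p6 matched 26 of the 35 genes, with 32 windows among 32851. Those of 4 genes are printed because they stand for the 2 patterns described below: Krt8 and Lgals4 for the genes that followed one another over all 9 arrays, Fabp1 and Fabp2 for the enterocyte genes that parted from them. Each run is the 250 bases before the start, on the gene's strand, with matches to any of 5 motifs in capitals: CACCTG (an E-box), GGGCGG (GC box), GTTAAT (HNF1 core), CAAAGT (HNF4 core) and TTTAT (CDX core), on either strand. Krt8 lies at chr15:102004343-102004592 (minus strand), Lgals4 at chr7:28833544-28833793, Fabp1 at chr6:71199629-71199878 and Fabp2 at chr3:122894822-122895071 (plus strand).
Krt8: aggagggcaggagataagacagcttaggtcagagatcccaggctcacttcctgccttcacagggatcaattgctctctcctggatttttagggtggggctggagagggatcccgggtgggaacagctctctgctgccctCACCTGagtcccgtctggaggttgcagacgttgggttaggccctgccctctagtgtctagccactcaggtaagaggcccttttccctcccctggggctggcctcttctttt
Lgals4: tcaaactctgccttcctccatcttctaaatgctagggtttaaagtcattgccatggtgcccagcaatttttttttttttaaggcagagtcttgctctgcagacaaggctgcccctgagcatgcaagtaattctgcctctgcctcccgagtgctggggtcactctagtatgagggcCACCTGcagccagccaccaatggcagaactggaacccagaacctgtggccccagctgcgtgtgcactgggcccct
Fabp1: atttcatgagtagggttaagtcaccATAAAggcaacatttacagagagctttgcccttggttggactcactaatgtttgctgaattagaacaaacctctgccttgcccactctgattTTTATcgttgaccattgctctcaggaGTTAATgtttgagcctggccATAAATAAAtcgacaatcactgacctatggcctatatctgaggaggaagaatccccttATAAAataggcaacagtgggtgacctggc
Fabp2: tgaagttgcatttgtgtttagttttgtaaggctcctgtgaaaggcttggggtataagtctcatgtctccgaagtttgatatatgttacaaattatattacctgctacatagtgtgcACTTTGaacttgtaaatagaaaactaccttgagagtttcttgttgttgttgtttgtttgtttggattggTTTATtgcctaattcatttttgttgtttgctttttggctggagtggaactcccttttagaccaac
The Krt8 and Lgals4 windows each held 1 E-box and none of the other motifs. Fabp1 held the HNF1 core 107 bases before the start and 5 CDX cores, of which 2 abut in one run of capitals and share a base, and a TATA box can also match that motif. Fabp2 held an HNF4 core on the opposite strand 134 bases before the start and a CDX core at 65. The CDX core stood in 25% of member windows and 37.3% of all windows, so such matches are common. The HNF4 core stood in 15.6% of member windows and 12.55% of all, and the HNF1 core in 15.6% and 6.43%. Of the 4 windows of enterocyte lipid genes, 2 held a CDX core, 2 an HNF4 core and 1 an HNF1 core. The E-box stood in 46.9% of the 32 member windows and 17.2% of all windows, and in 1 of the 4 windows of enterocyte lipid genes against 14 of the other 28. The GC box stood in none of those 4 windows, in 13 of the other 28 and in 32.7% of all. These are matches of letters in a short window, several windows belong to 1 gene, and no test was made.

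The keratins of simple epithelia differed several-fold between pools of the same treatment. Krt8, the keratin that pairs with Krt18, stood at 9.62, 7.60 and 10.62 log2 on the Shh arrays 1 to 3, at 10.32, 10.16 and 9.06 on the Ihh arrays, and at 10.62, 9.35 and 7.54 on the Vehicle arrays. The highest and the lowest array were 8.48-fold apart, and each treatment held a high and a low pool, so that the 3 groups overlapped. Krt18 was at 9.09, 7.33 and 9.85 with Shh, at 9.56, 9.44 and 8.69 with Ihh, and at 9.81, 8.64 and 7.00 with Vehicle. Krt19, a keratin of the same tissue, was at 8.86, 6.58 and 9.80 with Shh, at 9.62, 9.48 and 8.01 with Ihh, and at 9.90, 8.63 and 6.63 with Vehicle. In all 3 keratins Shh 3 and Vehicle 1 were the highest arrays and Shh 2 and Vehicle 3 the lowest. Krt20, a keratin of differentiated cells, had the same highest and lowest pool in each group over a smaller range, 5.58 to 7.31. Vil1, the actin-bundling protein of the brush border, ranged from 4.45 to 6.02, with Ihh 2 rather than Ihh 1 as the highest Ihh pool.

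**Figure D1:**
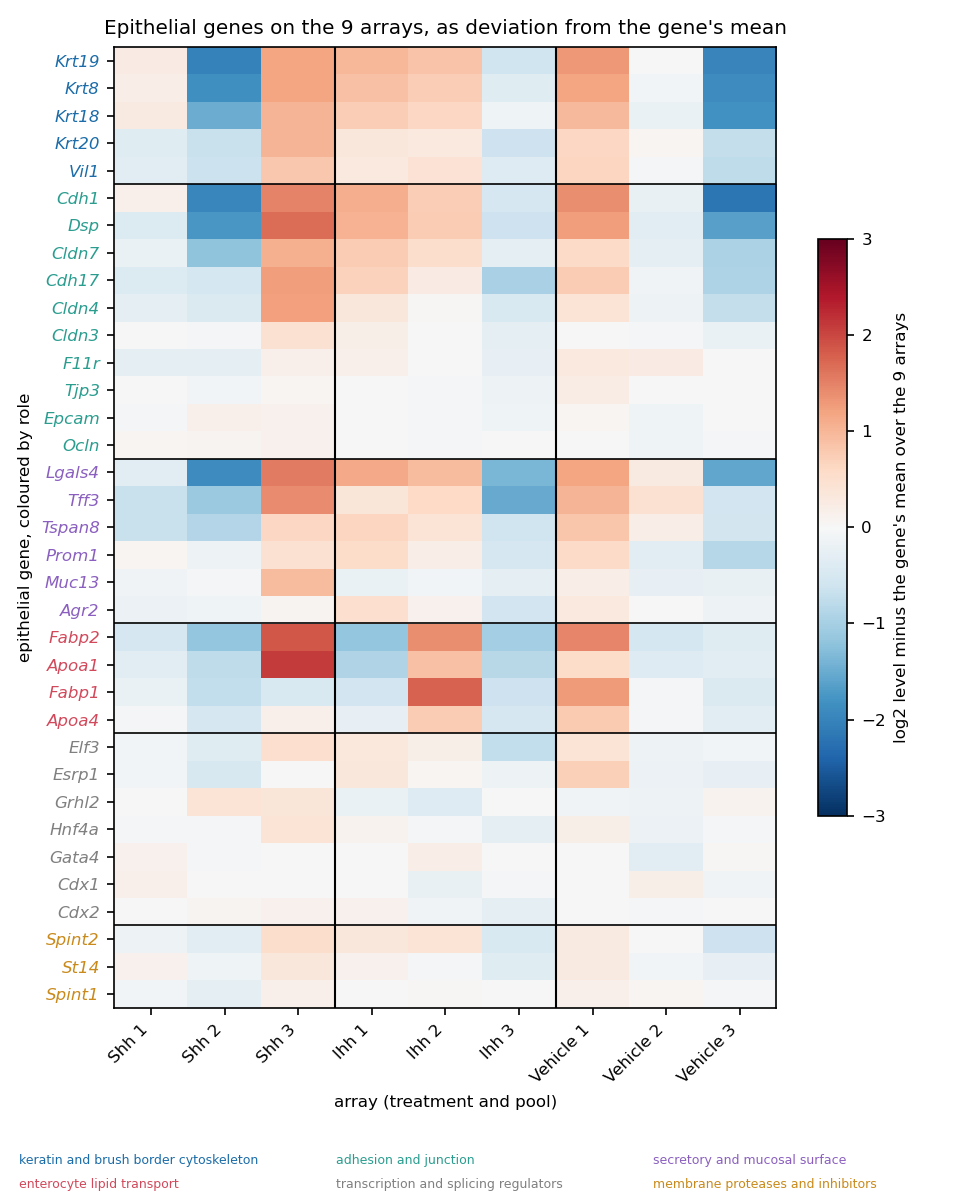
Heat map of the 35 epithelial genes (rows, coloured by role) on the 9 arrays (columns), as log2 level minus the gene's mean over the arrays, red above and blue below. The columns Shh 3 and Vehicle 1 are red and Shh 2 and Vehicle 3 blue for most keratin, junction and surface genes, and the 4 enterocyte lipid genes are blue on Ihh 1, where the keratins are red.

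By their brightest probe sets, junction genes fell into a group with wide ranges and a group with narrow ones. Cdh1, E-cadherin, was at 7.04, 4.94 and 8.37 log2 with Shh, at 7.98, 7.62 and 6.38 with Ihh, and at 8.28, 6.66 and 4.71 with Vehicle. Dsp, the desmosomal plaque protein, was at 5.52, 4.18 and 7.61 with Shh, at 6.98, 6.71 and 5.31 with Ihh, and at 7.19, 5.62 and 4.31 with Vehicle. Both had the order of pools seen in Krt8 within every treatment, over ranges of 3.67 and 3.42 log2, and the low levels of Dsp are compressed. The tight junction genes Cldn7 (range 2.28), Cldn4 (1.95) and Cldn3 (0.74) and the gut cadherin Cdh17 (2.22) were also highest on Shh 3. Other probe sets of Cldn3 ranged over 0.93 to 1.58, and the widest was highest on Vehicle 1 (6.79), with Shh 3 at 6.74. F11r, a junctional adhesion molecule that endothelial cells and leukocytes make too, ranged over 0.57, and Tjp3, a tight junction scaffold, over 0.38.

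Among the secretory and surface genes, Lgals4, a galectin of the gut lining, was at 7.37, 5.84 and 9.28 log2 with Shh, at 8.86, 8.67 and 6.35 with Ihh, and at 8.91, 7.99 and 6.17 with Vehicle. Ihh 3 was lower for Lgals4 relative to the other Ihh pools than it was for Krt8, by 2.50 log2 below Ihh 1 against 1.25. Tff3, the trefoil peptide of goblet cells, was at 6.99, 6.55 and 9.07 with Shh, at 8.01, 8.25 and 6.14 with Ihh, and at 8.68, 8.10 and 7.07 with Vehicle. Its lowest array was Ihh 3 rather than Shh 2 or Vehicle 3. The tetraspanin Tspan8 ranged over 1.72, the pentaspan membrane protein Prom1 over 1.44, the membrane mucin Muc13 over 1.24 and Agr2, which helps fold mucins, over 1.09 log2. Dimmer probe sets ranged less, over 0.40 to 0.55 for Tspan8, 0.52 for Muc13 and 0.51 for Agr2. Muc13 reached 7.08 on Shh 3 and lay between 5.84 and 6.32 on the other 8 arrays.

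The enterocyte lipid genes followed another order. Fabp2, the intestinal fatty acid binding protein, was at 4.81, 4.15 and 7.18 log2 with Shh, at 4.16, 6.70 and 4.29 with Ihh, and at 6.78, 4.78 and 4.94 with Vehicle. Apoa1, an apolipoprotein of HDL, was at 5.96, 5.55 and 8.40 with Shh, at 5.40, 7.17 and 5.47 with Ihh, and at 6.85, 5.91 and 5.98 with Vehicle. Each treatment had 1 high pool (Shh 3, Ihh 2 and Vehicle 1), and Ihh 1, which was among the high pools for the keratins, was among the low ones here. Fabp1, the liver-type fatty acid binding protein that enterocytes also make, was at 4.53, 3.99 and 4.27 with Shh, at 4.16, 6.49 and 4.11 with Ihh, and at 6.01, 4.68 and 4.30 with Vehicle. Shh 3, the highest array for Fabp2 and Apoa1, was thus not high for Fabp1, and the second Fabp1 probe set was at 3.85 there against 6.15 on Ihh 2 and 7.22 on Vehicle 1. Apoa4, a chylomicron apolipoprotein, ranged from 4.81 to 6.10, with Vehicle 1 and Ihh 2 highest.

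**Figure D2:**
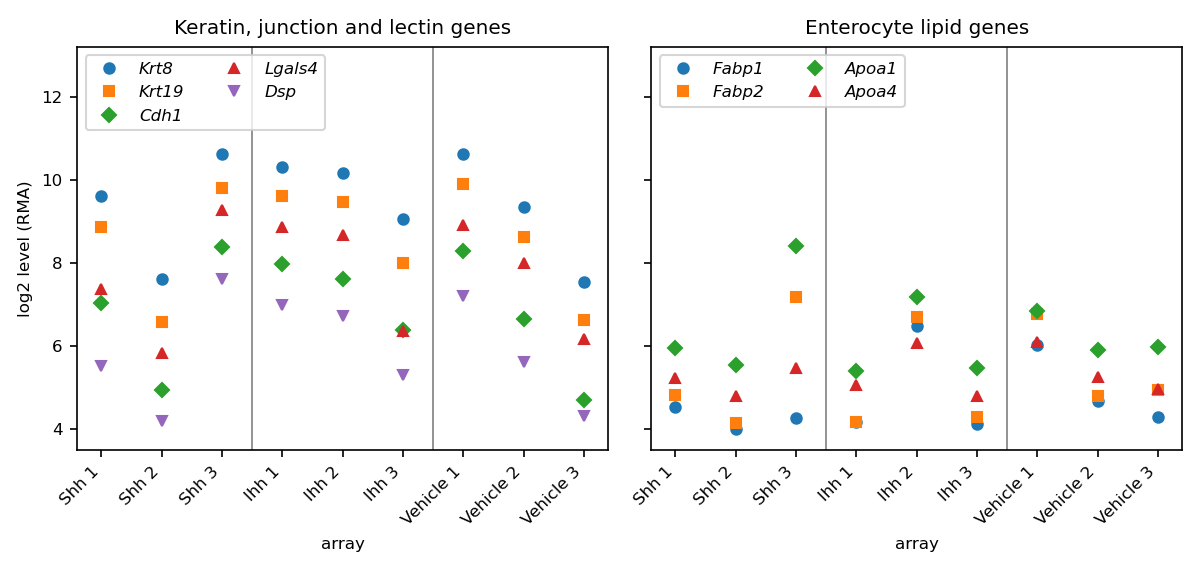
RMA log2 levels (vertical axis) of 5 keratin, junction and lectin genes (left) and the 4 enterocyte lipid genes (right) on each of the 9 arrays (horizontal axis), 1 point per array and gene. Ihh 1 is near the top of its group on the left, with Krt8 at 10.32, and at the bottom or near it on the right, with Fabp2 at 4.16.

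The regulators and the membrane proteases and inhibitors had narrower ranges than the keratins. By their brightest probe sets all 10 exceeded the median range of all genes, 0.33 log2. Other probe sets of Cdx2 (0.24), Grhl2 (0.27) and Gata4 (0.33) ranged under the median of single-symbol probe sets, 0.35 log2. Elf3, an epithelial ETS factor, ranged over 1.23 log2 and Esrp1, an epithelial splicing regulator, over 1.21. Grhl2, a grainyhead factor of epithelia, ranged over 0.80 but was highest on Shh 2 at 6.84, an array low in keratins, and lowest on Ihh 2 at 6.04. Hnf4a ranged over 0.68, Gata4 over 0.51, and the gut homeobox factors Cdx1 and Cdx2 over 0.41 and 0.40. The levels of Cdx1 (3.97 to 4.38), Cdx2 (4.49 to 4.89) and Gata4 (4.42 to 4.93) all lay below the array medians, where RMA values are compressed. Spint2, a Kunitz-type protease inhibitor, ranged over 1.14 (2.27 by its other probe set), the membrane protease St14 over 0.70 and the inhibitor Spint1 over 0.42.

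Against the median range of all genes, 0.33 log2, the members' median was 1.30. A range over 1 log2 was found in 23 of 35 members and 2.83% of all genes, and one over 2 log2 in 12 members and 0.522% of all genes. Within treatments, the members' median SD between pools was 0.55, against 0.10 for all genes. A range under the median of all genes, the criterion for flat, was met by 2 members, Epcam and Ocln, where 50% of all genes meet it by construction. Their probe sets with the highest mean ranged over 0.26 log2 each. Both genes had another probe set that was not flat: that of Epcam, a surface protein of nearly all epithelial cells, stood at 6.57, 5.67 and 8.34 with Shh, at 7.77, 7.53 and 6.21 with Ihh, and at 8.18, 6.80 and 5.67 with Vehicle. That of Ocln, occludin of tight junctions, ranged over 1.05. No member had all its probe sets under the median range of single-symbol probe sets, and 6 had some but not all under it. Which members counted as flat thus depended on the probe set.

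The highest array was Shh 3 or Vehicle 1 in 29 of the 35 members and in 27.3% of all genes, and the lowest was Shh 2, Ihh 3 or Vehicle 3 in 29 members and 32.0% of all genes. Both held in 26 members and in 10.4% of all genes. These arrays were picked after their values were seen, so the counts are a description.

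Shared variation was tested as the slope of each gene on a covariate gene between arrays of the same group, over all genes. With Epcam by its brightest probe set, the covariate chosen at the outset, limma called 0 of 18192 genes (0%) and 0 of 34 members. At an unadjusted p under 0.05 it passed 943 genes (5.18%) and 1 member, Hnf4a. That probe set varied little, with an SD within groups of 0.08 log2. With Krt8 as the covariate, an alternative chosen at the outset, 27 of 18192 genes were called (0.148%), all with a positive slope, and 7 of 34 members were among them. The members' median slope was 0.31 log2 per log2 of Krt8, against 0.0018 for all genes, and 26 of 34 passed at an unadjusted p under 0.05, where 8.96% of all genes did.

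Cdh1 rose by 1.15 ± 0.03 log2 per log2 of Krt8 (SE, adjusted p = 3.95e-07) and Krt19 by 1.09 ± 0.03 (adjusted p = 3.95e-07). Krt18 rose by 0.86 ± 0.03 (adjusted p = 8.75e-07), less than log2 for log2. Dsp (1.02 ± 0.09, adjusted p = 0.00329), Lgals4 (1.09 ± 0.12, adjusted p = 0.0121), Cldn7 (0.62 ± 0.06, adjusted p = 0.0076) and Vil1 (0.46 ± 0.06, adjusted p = 0.0294) completed the 7. By role these were 3 of 4 keratin and brush border genes, 3 of 10 junction genes, 1 of 6 secretory and surface genes, and 0 of the 4 enterocyte lipid genes, 7 regulators and 3 membrane proteases and inhibitors. The calls leaned on single pools: without Vehicle 1 the count was 3 of 34, with Vil1, Lgals4 (adjusted p = 0.0527), Cldn7 (0.0591) and Dsp (0.0523) lost, and without Shh 2 it was 12. Lgals4 was also lost without Shh 3 (adjusted p = 0.1), and Vil1 without any of Shh 3, the Ihh arrays or the Vehicle arrays (adjusted p up to 0.298). With the pools' number as a block both were lost (adjusted p = 0.056 each). Other probe sets of a member could behave differently. Tested singly on Krt8, 32 of 34942 probe sets were called (0.0916%), and 10 members had a called one. The 3 added in this way were Spint2 (slope 0.68, adjusted p = 0.00373), Epcam (0.85, adjusted p = 0.0104) and Cldn3 (0.40, adjusted p = 0.0199), each by a probe set that was not its brightest. The other probe set of Ocln had a slope of 0.25 (adjusted p = 0.443).

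**Figure D3:**
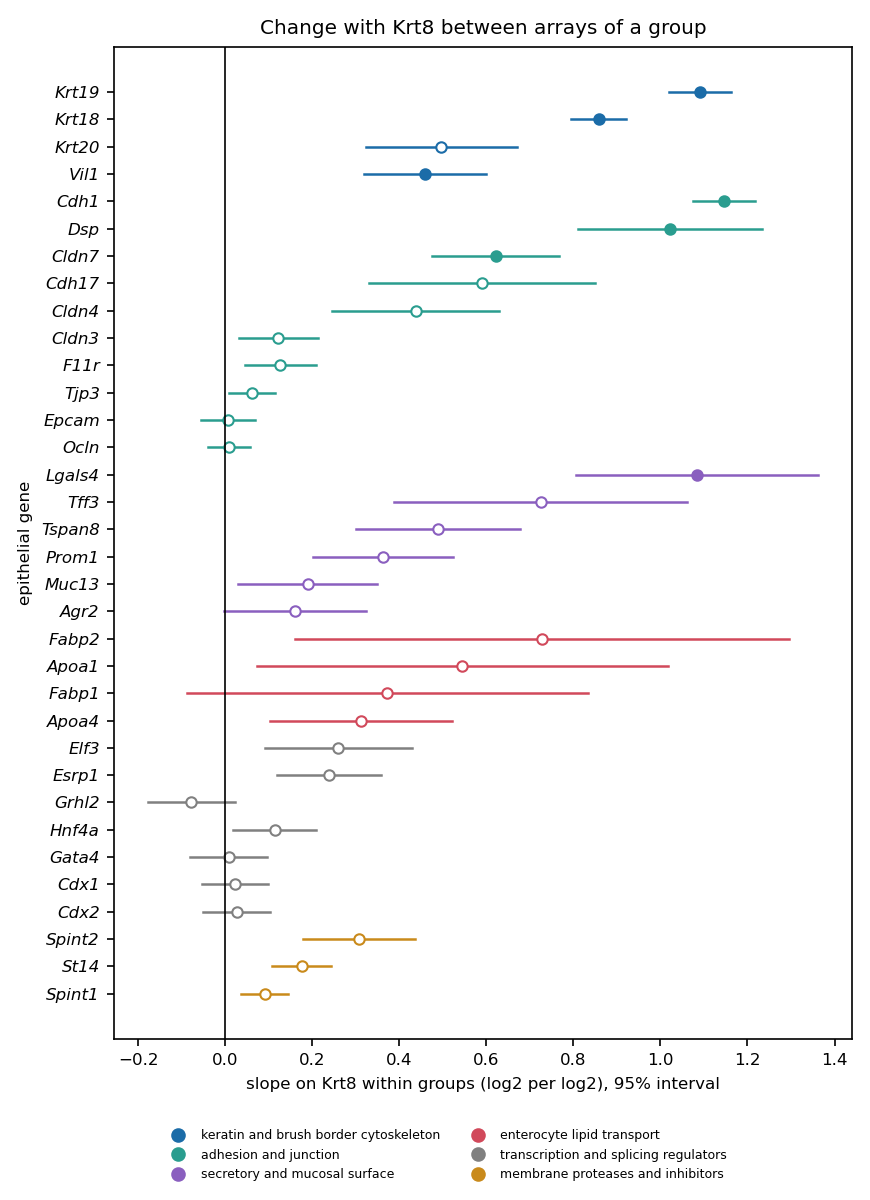
Slopes of 34 epithelial genes on Krt8 between arrays of the same group (horizontal axis, log2 per log2) with 95% intervals, coloured by role, filled where the limma adjusted p was under 0.05. Cdh1, Krt19, Dsp and Lgals4 lie near 1, and the intervals of Epcam and Ocln, each by its flat probe set, and of Cdx1, Cdx2, Gata4 and Grhl2 cross 0.

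Among the members not called, Krt20 had a slope of 0.50 (adjusted p = 0.0641), Tspan8 0.49 (0.105) and St14 0.18 (0.106). The lipid genes had slopes of 0.73 ± 0.25 for Fabp2 (adjusted p = 0.467), 0.55 ± 0.21 for Apoa1 (0.506), 0.37 ± 0.20 for Fabp1 (0.636) and 0.31 ± 0.09 for Apoa4 (0.416), with errors wide enough that the interval of Fabp2 ran from 0.16 to 1.30. At an unadjusted p under 0.05, 3 of the 4 lipid genes and 3 of the 7 regulators passed, where 8.96% of all genes did. The median slope was 0.46 for the lipid genes and 0.03 for the regulators. Slopes of Cdx1 (0.02), Cdx2 (0.03), Gata4 (0.01) and Grhl2 (-0.08) had intervals that held 0. Other covariates gave other counts. With Cdh1 8 members were called, Krt8, Krt18, Krt19, Krt20, Vil1, Dsp, Cldn7 and Lgals4, among 29 genes (0.159%). With the other Epcam probe set, added after the brightest was seen to be flat, 16 members were called among 55 genes (0.302%), and Cdh17, Cldn4, Tff3, Tspan8, Prom1, Spint2 and St14 joined the list. With Fabp2, added after the lipid genes were seen to part from the keratins, 1 gene was called (0.0055%), the member Apoa1, which rose by 0.77 ± 0.07 log2 per log2 of Fabp2 (adjusted p = 0.0229). No fit with any of the 5 covariates called a regulator.

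Ihh 2 and Ihh 1 showed the split between lipid and keratin genes most plainly. On Ihh 2 the keratins Krt8, Krt18, Krt19 and Krt20 were 0.15, 0.12, 0.14 and 0.04 log2 below Ihh 1, while Fabp2 was 2.54, Fabp1 2.33, Apoa1 1.78 and Apoa4 1.01 log2 above it. In all 16 of the 18193 genes lay 1 log2 or more apart between these arrays, 11 higher on Ihh 2 and 5 lower, and all 4 lipid members were among the 11. The other 7 were Gkn2, Alpi, Clca4b, Cyp2c29, Cyp2c65, Lypd8 and Prap1, of which Alpi is an intestinal alkaline phosphatase of the brush border and Gkn2 a gastrokine of the stomach. The 5 lower on Ihh 2 were Reg3b, Reg1, Cldn2, Dmbt1 and Sh3d19. Reg3b, an antimicrobial lectin of the gut, stood at 7.21 on Ihh 2 and 8.89 on Ihh 1, and Cldn2, a pore-forming claudin, at 5.89 on Ihh 2 and 7.14 on Ihh 1. These genes were named after their values were seen, and 2 single arrays allow no test.

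**Figure D4:**
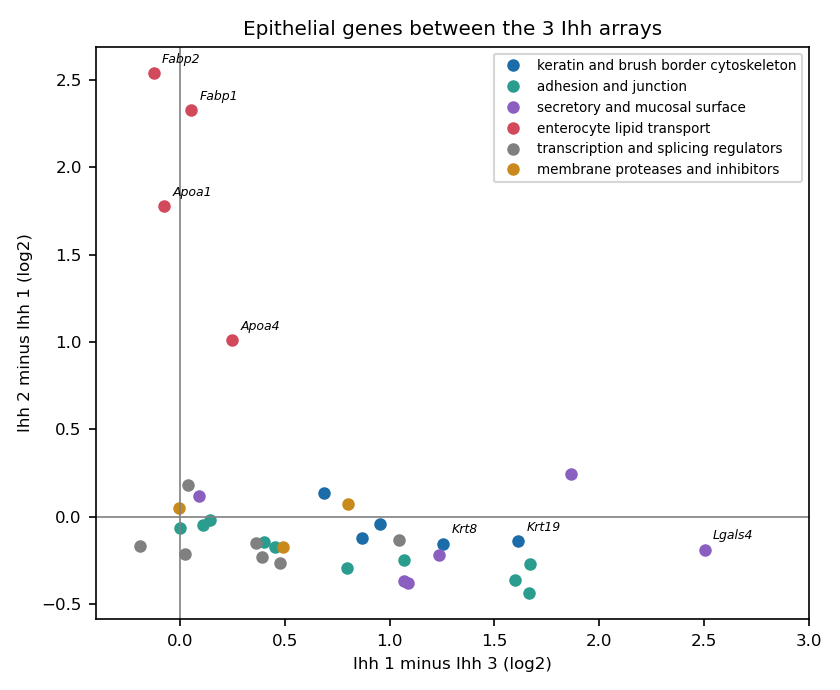
Differences in log2 level between the 3 Ihh arrays for the 35 epithelial genes, Ihh 2 minus Ihh 1 (vertical) against Ihh 1 minus Ihh 3 (horizontal), coloured by role. The 4 lipid genes stand at 1.01 to 2.54 on the vertical axis, apart from the other genes, and near 0 on the horizontal axis, where Lgals4 reaches 2.50.

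The ligands were then compared with Vehicle. For both ligands together, Krt8 averaged 9.28 ± 1.54 log2 with Shh, 9.85 ± 0.68 with Ihh and 9.17 ± 1.55 with Vehicle (SD, n = 3 each), a difference of 0.40 with a 95% interval of -1.23 to 2.02 (limma adjusted p = 0.881). Limma called 0 of the 35 members, where it called 274 of 18193 genes (1.51%), and 0 members passed at an unadjusted p under 0.05, where 13.7% of all genes did. The members' differences ran from -0.45 for Tff3 to 0.51 for Krt18, with a median of 0.04, against 0.0012 for all genes. The keratin group had a median of 0.34, the junction genes 0.14, the secretory and surface genes -0.02, the lipid genes -0.24, the regulators -0.002 and the proteases and inhibitors 0.03. The intervals of Cdh1 (-1.36 to 2.38), Krt19 (-1.44 to 2.11) and Fabp2 (-2.00 to 1.43) were wide, so differences within these limits were not excluded. Narrower intervals belonged to genes with little variation, such as Cdx2 (-0.17 to 0.17) and Spint1 (-0.27 to 0.10).

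**Figure D5:**
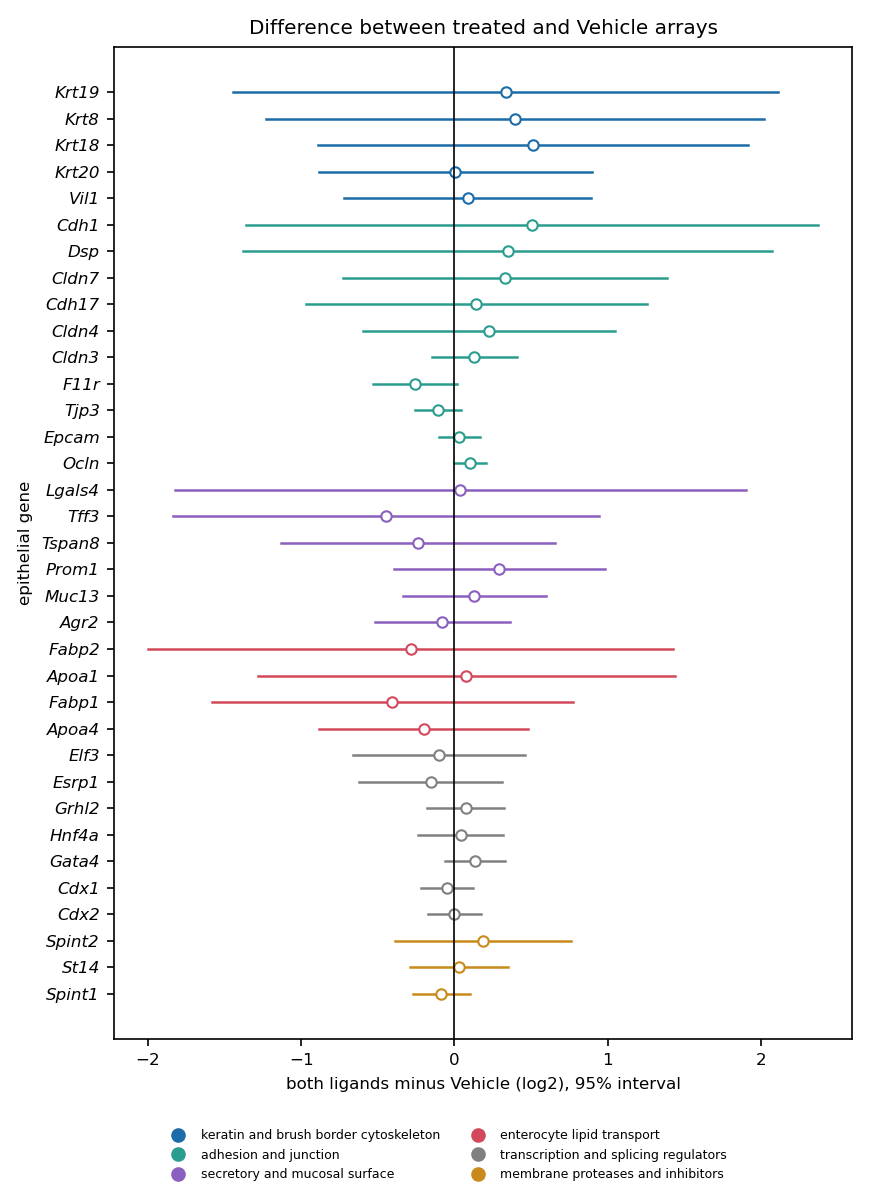
Difference between both ligands and Vehicle (horizontal axis, log2, positive where the treated arrays were higher) for the 35 epithelial genes, with 95% intervals from the limma fit and colours by role. All points are open, as no adjusted p was under 0.05, and every interval holds 0, with the widest for Cdh1, Lgals4 and Krt19.

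With Shh against Vehicle 0 of 35 members were called, where 314 genes were (1.73%), with 2 members at an unadjusted p under 0.05, where 18.8% of all genes were. These were Ocln, 0.16 ± 0.05 log2 (SE, adjusted p = 0.148), whose Shh and Vehicle arrays did not overlap by its flat probe set (20.9% of all genes did not overlap), and Grhl2, 0.30 ± 0.13 (adjusted p = 0.248). With Ihh against Vehicle 0 members were called, where 118 genes were (0.649%), 0 at an unadjusted p under 0.05 (9.19% of all genes), and their median difference was -0.02. Same-numbered Ihh and Vehicle pools deviated together, and with these 6 arrays fitted alone and paired by number 280 genes were called (1.54%), against 87 unpaired, and again 0 members. The pairing was chosen after those deviations were seen, so the higher count cannot show that the numbers mark real pairs. In the paired fit 7 members passed at an unadjusted p under 0.05, where 14.4% of all genes did. Cldn7 (0.55 ± 0.12 log2, SE, limma adjusted p = 0.0966), Dsp, Prom1 and Spint2 had positive differences and F11r (-0.21 ± 0.05, adjusted p = 0.148), Grhl2 and Tff3 negative ones. With Shh against Ihh 0 members were called, where 2 genes were (0.011%), and Grhl2 (0.46 ± 0.13, adjusted p = 0.292) and Ocln (0.12 ± 0.05, adjusted p = 0.379) passed at an unadjusted p under 0.05, as did 13.1% of all genes. Besides Ocln, Cdx1 was the member whose Shh and Ihh arrays did not overlap, 2 of 35 members against 17.3% of all genes, at 4.21 to 4.35 with Shh and 3.97 to 4.18 with Ihh (adjusted p = 0.459). The comparisons with Vehicle share the 3 Vehicle arrays.

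Of 80 further epithelial genes in 4 lists, 0 were called in any of the 4 comparisons. Their median range was 0.47 log2, against 0.52 for 78 marker genes of other cell types and 0.33 for all genes. Many of the 80 lay below the array medians, where RMA values are compressed. Ranges of the 78 include differences between treatments. Limma called 6 of them lower and 1 higher with both ligands than with Vehicle, where it called 1.51% of all genes. A range over 1 log2 was found in 13 of the 80 and 18 of the 78, and one over 2 log2 in 5 and 1. The widest was Clca1, a goblet cell gene, at 4.21, 4.04 and 6.69 log2 with Shh, at 7.08, 7.22 and 3.57 with Ihh, and at 7.84, 7.33 and 4.09 with Vehicle. The order of its pools within each treatment was that of Tff3. In the same list, Spink4 and the hormone gene Cck ranged over 1.60 and 1.28, and Cck was highest on Shh 1. Among further absorptive genes the widest were Guca2a (2.32), Alpi (2.11) and Cdhr2 (1.54), each highest on Shh 3 or Ihh 2. Among junction and keratin genes they were Krt7 (2.75), Cldn2 (2.26) and the desmosomal cadherin Dsg2 (1.94), and among regulators Gata6 (1.34), Klf4 (1.28) and Foxa1 (0.92). On Krt8 2 of the 80 were called, Krt7 (slope 0.85, adjusted p = 0.00057) and Perp (0.49, adjusted p = 0.00386), a desmosomal membrane protein. These were among the 5 genes outside the members with the smallest p, beside Sprr1a (slope 0.84, adjusted p = 1.13e-05), a cornified envelope protein, S100a14 (0.50) and Gcnt3 (0.68), an enzyme of mucin glycan synthesis. Of the epithelial ligand genes themselves, Shh stood at 5.69 to 6.17 and Ihh at 4.20 to 4.81, with differences of 0.24 (adjusted p = 0.127) and 0.31 (adjusted p = 0.112) between both ligands and Vehicle.

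Marker lists of other cell types were set beside the members. The mean of the 5 keratin and brush border genes ranged over 2.48 log2 between arrays and that of the 4 lipid genes over 1.98, with 1.66 for the secretory and surface genes, 1.44 for the junction genes, 0.65 for the proteases and inhibitors and 0.42 for the regulators. The further epithelial lists ranged over 0.26 to 0.57. Among the cell types it was 0.35 for mesothelium, 0.48 for endothelium, 0.46 for immune cells, 0.22 for mesenchyme and smooth muscle and 0.55 for enteric neurons and glia. These ranges span treatments as well as pools. The immune mean was 9.32 to 9.46 with Vehicle, but at most 9.07 with Shh and 9.06 with Ihh. Limma called 6 of 15 immune genes lower and 1 higher with both ligands than with Vehicle, where it called 1.51% of all genes. With Shh it called 2 of 16 endothelial genes lower than with Vehicle, where it called 1.73% of all genes. Against Vehicle, 0 of 16 endothelial genes had a positive difference with Shh or with Ihh. Of all 18193 genes, 9802 did with Shh and 8365 with Ihh. In the Ihh and Vehicle groups most endothelial and most enteric neuron and glia genes had higher levels in a pool high in keratins than in the lowest one. On Ihh 1 against Ihh 3, 14 of 14 neuron and glia genes and 15 of 16 endothelial genes were higher, against 52.4% of all genes, and on Vehicle 1 against Vehicle 3, 13 of 14 and 12 of 16, against 46.6%. On Shh 3 against Shh 2 it was 5 of 14 and 7 of 16, against 49.2%. The slopes of the 14 neuron and glia genes on Krt8 were all positive, 0.01 to 0.09, where the median member had 0.31, and the part of these cells in the members' levels was not tested. On Krt8, 0 genes of the endothelial, immune, mesenchymal and neuronal lists were called and 2 of 13 mesothelial genes were: Msln (slope 0.52, adjusted p = 0.0245), at 5.93, 4.94 and 6.73 with Shh, at 5.91, 6.02 and 5.05 with Ihh and at 6.28, 5.18 and 4.98 with Vehicle, and Efemp1 (slope 0.24, adjusted p = 0.032). The mesothelium makes Krt8, Krt18 and Krt19 as well, and the mean of its list was highest on Vehicle 1 (5.34) and lowest on Vehicle 3 (4.99), the highest and lowest Vehicle pools for these keratins. Of the 13 mesothelial genes 7 were highest on Shh 3 or Vehicle 1, as were 27.3% of all genes. Aldh1a2 was highest on Ihh 1 (9.75) and lowest on Shh 3 (8.73). The part of mesothelium in the keratin levels was not tested. The source of the Lgals4, Fabp2 and Tff3 transcripts, genes described above by their roles in the gut lining, was not tested either.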

How the data were processed

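Biotin-labelled cRNA from 6 ug of total RNA was hybridised to 9 Affymetrix arrays, 3 each for Shh, Ihh and Vehicle, each of pooled wells per the labels' protocols. The authors deposited 1 log2 value per probe set and array, made with GCOS and RMA per the submitters' processing notes, which name no versions. The log2 scale was read from the values' range, 2.78 to 14.20. No batch was given. Arrays have no read depth, and the number of arrays limits the precision.

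Of 45101 probe sets 34945 had 1 gene symbol, and the brightest of each gene was used. In R 4.3.3, limma 3.58.1 (lmFit, eBayes) fitted group means over the 9 arrays and, beside group means, slopes on a covariate gene. Two-sided p-values were corrected over all genes by the Benjamini-Hochberg method with a threshold of 0.05, and the steps were tested on simulated data. Adjusted p are from limma throughout. The labels do not say what a pool's number marks. Same-numbered Ihh and Vehicle pools deviated together from their group means (r = 0.226 to 0.543, 3 of 3 pairs over 0.1), so they were also fitted as pairs, while Shh pools did not follow the number (r = -0.297 to 0.141, 1 of 6 pairs over 0.1). Among Ihh and Vehicle pools of unlike number, Ihh 2 and Vehicle 1 had r = 0.218, and the others -0.478 to 0.010.

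The members and lists were chosen with earlier results of these data known. All members were named, with the 3 widest-ranging genes of each further epithelial list, the 5 other genes of smallest slope p, cell type genes past the slope threshold or of highest level, and Ptch1. The design fixed Epcam as the covariate and Cdh1 and Krt8 as alternatives. Because the brightest Epcam probe set hardly varied, results are given mainly for Krt8, and genes past its slope threshold outside the members were named after their values were seen. The closing section gives the effect of the alternatives.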

Additional observations from a re-analysis of the deposited data

How the results depend on the processing

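For members in the 4 comparisons, 0 were past the threshold under every alternative run: another quantile normalization, arrays centred on medians, no dim genes, the mean of probe sets, every probe set singly, no less specific probe sets, a trended and robust variance, array weights, the replicate block and leaving out each array. Counts of all genes moved: array weights gave 1126 for both ligands, 1017 for Shh and 498 for Ihh against Vehicle. Leaving out single arrays gave 99 to 416 for both ligands, 80 to 675 for Shh against Vehicle, 53 to 229 for Ihh against Vehicle and 1 to 2 for Shh against Ihh. The replicate block gave 379, 522, 122 and 2 genes in the 4 comparisons (Shh against Vehicle 522), 0 on Epcam, and 19 genes with 5 members on Krt8, where Vil1 and Lgals4 were lost. The pairing by number of Ihh and Vehicle arrays alone, a replicate block chosen after seeing the data, gave 280 genes and 0 members, and the same arrays unpaired 87 and 0. The block changed no other call of a member. The slope on Epcam called 0 genes and 0 members without any single array, and 29 genes with 8 members with Cdh1 as covariate, 27 with 7 with Krt8, 55 with 16 with the other Epcam probe set and 49 with 17 with the mean of probe sets. The slope on Krt8 called 13 genes without dim genes, 9 to 233 genes and 3 to 12 members without single arrays, and otherwise 19 to 29 genes and 5 to 10 members. Lgals4 was lost with a trended variance (adjusted p = 0.126). Flat members numbered 2 to 4, with 4 without Ihh 3. Single members on Krt8 kept their side of the threshold in 505 refits, were lost in 14 and gained in 13, and 0 turned direction. The causes of these moves were not tested. Signal near background limits Cdx1, Cdx2, Gata4, Esrp1 and the low pools of Dsp, Fabp1 and Fabp2, where RMA values are compressed. Agr2, Tjp3 and Ocln also lay below the array medians. So did Vil1 on all arrays but Shh 3, and Apoa4 on all but Ihh 2 and Vehicle 1. The low pools of other members, such as Cdh1, Cldn7 and Apoa1, lay below them too.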
